A study of Mus musculus with 24 samples.

Results

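The genes described here encode scaffold and adhesion proteins of the synapse. They are 28 genes, taken by symbol from a list that was drawn up with earlier results of these data known, out of 45777 in the deposited table, and each was found there once. They comprise 19 genes of the excitatory postsynaptic density, namely the guanylate kinase scaffolds Dlg1, Dlg2, Dlg3 and Dlg4, the linkers Dlgap1, Dlgap2, Dlgap3 and Dlgap4, the deep scaffolds Shank1, Shank2, Shank3, Homer2 and Homer3, the kinase subunits Camk2a and Camk2b, the AMPA receptor auxiliary subunits Cacng2, Cacng3 and Cacng8, and the exchange factor Iqsec2. A further 2 genes, Gphn and Nlgn2, belong to inhibitory synapses. The remaining 7 are adhesion partners, of which Nlgn1, Nlgn3, Lrrtm1, Lrrtm2 and Nectin3 are largely postsynaptic or junctional and Nrxn2 and Nrxn3 presynaptic. The study sequenced RNA from prefrontal cortex, in 24 libraries of wild-type males in adulthood. The MS_EC12 group (n = 6) had undergone maternal separation, in which pups spend time away from their mother as an early-life stress, and received EC-12, a preparation of heat-killed Enterococcus faecalis, for 5 weeks. The MS group (n = 6) had maternal separation alone, the Control_EC12 group (n = 6) the supplement alone, and the Control group (n = 6) no treatment. No source used here gives the strain, the age in days, the separation schedule or the dose. The labels number the libraries within a group without tying each to its own animal. P-values therefore measure only the spread between these libraries, which may be partly technical.

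At an excitatory synapse, neurexins of the axon terminal bind neuroligins and leucine-rich repeat proteins of the spine, and these in turn are held by Dlg scaffolds. Dlgap proteins link the Dlg layer to Shank and Homer proteins, which reach the actin skeleton and metabotropic glutamate receptors, while CaMKII and the AMPA receptor auxiliary subunits set how many receptors the synapse holds. Inhibitory synapses use a separate lattice of gephyrin, which gathers GABA and glycine receptors and binds Nlgn2. In the cortex most of these proteins are made by neurons.

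The base composition of the transcripts differed widely among these genes and enters several results below. The mean GC content (the share of G and C bases) of the RefSeq-matched transcripts ran from 38.4% for Lrrtm2 to 67.2% for Cacng8. Coding stretches of 120 bases, taken from GENCODE vM21 on build GRCm38 and each within 1 exon, are shown for 4 genes of lower and higher GC content. Each stretch was chosen to have a GC content close to that of its whole transcript. They are written 5′ to 3′ on the coding strand with G and C in capitals.
Nlgn1 (exon 3, chr3:26133462-26133581, minus strand, 41.7% GC): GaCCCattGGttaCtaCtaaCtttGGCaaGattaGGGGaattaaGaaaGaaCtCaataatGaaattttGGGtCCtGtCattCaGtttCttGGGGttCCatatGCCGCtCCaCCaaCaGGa
Nectin3 (exon 3, chr16:46458959-46459078, minus strand, 45.0% GC): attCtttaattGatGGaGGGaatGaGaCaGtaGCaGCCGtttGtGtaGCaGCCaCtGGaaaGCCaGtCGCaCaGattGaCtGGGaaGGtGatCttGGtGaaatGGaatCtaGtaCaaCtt
Homer3 (exon 6, chr8:70290052-70290171, plus strand, 60.0% GC): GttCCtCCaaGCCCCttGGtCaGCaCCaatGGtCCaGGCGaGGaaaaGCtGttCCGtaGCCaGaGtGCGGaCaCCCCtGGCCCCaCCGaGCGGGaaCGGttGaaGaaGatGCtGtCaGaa
Dlgap3 (exon 3, chr4:127194730-127194849, plus strand, 65.0% GC): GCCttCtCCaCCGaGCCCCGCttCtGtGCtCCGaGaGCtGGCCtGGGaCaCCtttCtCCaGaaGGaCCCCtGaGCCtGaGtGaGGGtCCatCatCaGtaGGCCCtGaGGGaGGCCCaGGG
In the Nlgn1 and Nectin3 stretches lower-case A and T outnumber the capitals, and in the Homer3 and Dlgap3 stretches the capitals prevail.

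Total counts ran from 26250197 to 39252382 per library, and the 28 genes together took 0.851% to 1.11% of them. All 28 passed the filter on low counts that left 18380 genes for testing. The summed level of 5 excitatory neuron markers was 2180 to 3520 TPM and that of 6 inhibitory neuron markers 1340 to 1690 TPM, with no marker at 0. Libraries differed in how expression depended on GC content. The slope of log2 expression on transcript GC, taken relative to the mean library and per 10 percentage points, was above 0 in 4 MS_EC12 libraries (replicates 3 to 6, 0.287 to 0.655), 1 MS library (replicate 3, 0.283), 2 Control_EC12 libraries (replicates 3 and 4, 0.459 and 0.108) and 0 Control libraries. In the other 17 libraries it lay between -0.212 and -0.0934. Because the 7 libraries of positive slope were shared unevenly among the groups, each comparison is also given in the 17 libraries of slope below 0.

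The 28 genes spanned a wide range of levels. In TPM, which is scaled to transcript length and so allows genes to be compared, Camk2a, the alpha subunit of the calcium/calmodulin-dependent kinase of the spine, was highest at 1480 ± 158 TPM (SD, n = 24 libraries). Dlg4, the main scaffold of the excitatory postsynaptic density, followed at 620 ± 56.4 TPM, and Camk2b at 556 ± 43.1 TPM. The lowest Camk2a library, at 1090 TPM, lay above the highest Dlg4 library, at 726 TPM, whereas the Dlg4 and Camk2b ranges overlapped (529 to 726 and 462 to 656 TPM). At the low end stood Homer2 at 17.2 ± 3.56 TPM, Nectin3 at 12.2 ± 2.98 TPM, Nlgn1 at 11.5 ± 3.46 TPM and Homer3 at 8.08 ± 1.65 TPM, whose ranges overlapped one another. The linkers Dlgap3 and Dlgap1 reached 227 ± 30.4 and 194 ± 32.3 TPM, against 27.4 ± 6.28 TPM for Dlgap2. Among the adhesion partners the presynaptic Nrxn2 was highest at 161 ± 16.5 TPM, and the inhibitory pair stood at 121 ± 13.0 TPM for Nlgn2 and 43.6 ± 6.79 TPM for Gphn.

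**Figure D1:**
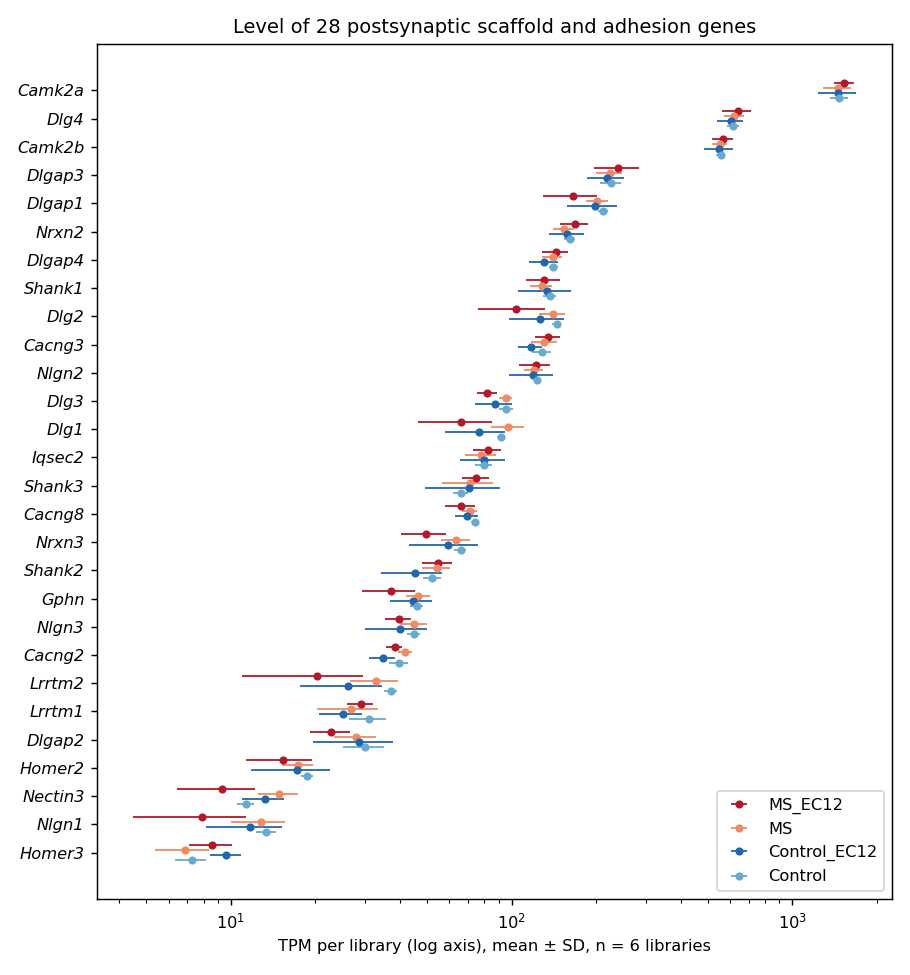
Mean TPM of each gene in each group on a log axis, with bars for the SD over 6 libraries and genes ordered by their mean over 24 libraries. Camk2a is highest at 1480 TPM and Homer3 lowest at 8.08 TPM, and the bars are widest in MS_EC12 for Nlgn1 and Lrrtm2.

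How tightly the libraries of a group lay together differed between groups. In CPM (counts scaled to library size and, with TMM, to composition), the highest MS_EC12 library was 1.13 to 2.98 times the lowest, over the 28 genes. The factor was 1.17 to 2.02 in MS, 1.15 to 2.57 in Control_EC12 and 1.08 to 1.32 in Control. The factor of 2.98 belonged to Nlgn1 and that of 2.57 to Lrrtm2, both among the genes of lowest GC content. In libraries of positive slope every value of Dlg1, Dlg2, Nlgn1, Lrrtm2 and Nrxn3 was lower than in every library of negative slope, and every value of Dlgap3 was higher. These 6 genes are 21.4% of the 28, and 18.1% of all genes tested were parted by the slope in the same way.

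**Figure D2:**
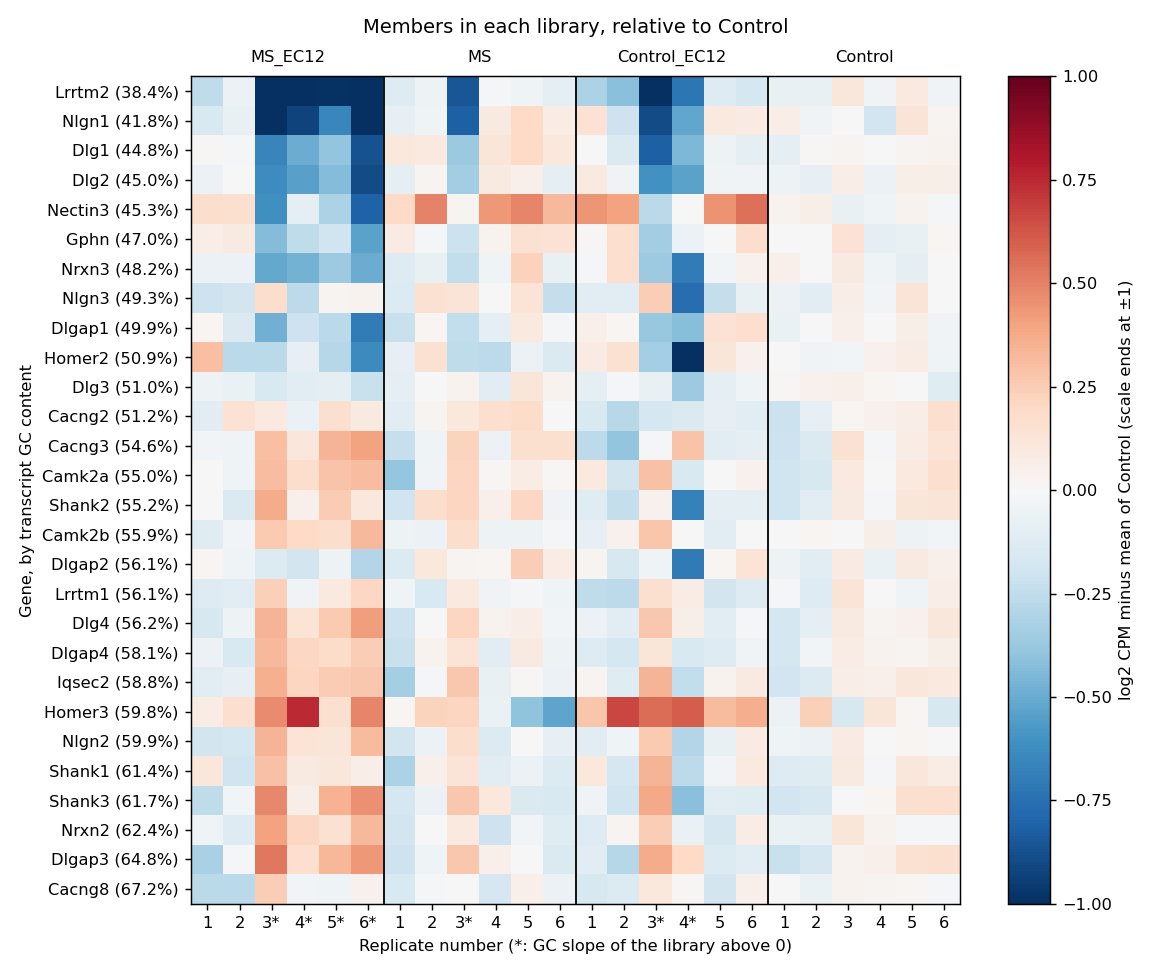
Log2 CPM of each gene in each library minus the mean of the Control libraries, with genes ordered by transcript GC content from the top and libraries by group. Libraries with an asterisk have a GC slope above 0, and in them the genes at the top are blue (lower) and most of those near the bottom red (higher). Control_EC12 replicate 4 is an exception, with Shank1, Shank3, Nlgn2 and Iqsec2 also lower than the Control mean. Nectin3 and Homer3 depart from the order of GC content.

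The comparison of MS_EC12 with MS asks what the supplement did in separated mice. None of the 28 genes passed an adjusted p under 0.05 in edgeR's quasi-likelihood test, where 0.163% of all genes tested passed (30 of 18380). At an unadjusted p under 0.05 there were 9 of the 28, 2 higher and 7 lower, against 31.8% of all genes (15.5% higher and 16.3% lower). No gene of the 28 had groups that did not overlap in CPM, which held for 0.854% of all genes. DESeq2 called 5 of the 28, Dlg1, Nlgn1, Lrrtm2 and Nectin3 lower and Homer3 higher, and 10.3% of all genes. The edgeR count depended on single libraries: it was 10 without MS_EC12 replicate 1 (27.2% of all genes), 9 without MS_EC12 replicate 2 (24.9%), 7 without MS replicate 3 (21.3%) and 1 without Control_EC12 replicate 4 (4.85%), and 0 in the other 20 fits that left out a library. In bulk tissue, fewer cells of a type and less RNA per cell cannot be told apart.

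The lowest fold changes in this comparison were those of adhesion genes. Nlgn1, the neuroligin of excitatory synapses, had 27.7, 39.9, 45.6, 55.0, 78.1 and 82.5 CPM in MS_EC12 libraries, against 49.3, 81.7, 84.2, 91.2, 92.0 and 99.7 CPM in MS libraries. The groups overlapped: the 4 low MS_EC12 libraries and the low MS library were those of positive GC slope, and the remaining MS_EC12 libraries stood near the lower MS ones. Its log2 fold change was -0.60 ± 0.213 (SE, n = 6 per group; adjusted p = 0.0908), and -0.16 ± 0.0934 (adjusted p = 0.628) in the 17 libraries of slope below 0, where 0.0733% of all genes and 0 of the 28 passed. Lrrtm2, a leucine-rich repeat partner of neurexins at excitatory synapses, had 28.1, 38.6, 39.2, 43.8, 73.1 and 83.4 CPM in MS_EC12 libraries, against 48.1, 79.6, 81.6, 84.1, 84.4 and 86.5 CPM in MS libraries. The same libraries were low, and the groups again overlapped. The fold change was -0.60 ± 0.221 on the log2 scale (adjusted p = 0.0955), and -0.09 ± 0.0755 in the 17 libraries (adjusted p = 0.767). Lrrtm2 lies within the span of Ctnna1, and no source used here gives the strand setting of the counting, so reads of such pairs could have been mixed. Ctnna1 itself had a log2 fold change of -0.13 ± 0.0823.

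Nectin3, an immunoglobulin-like protein of the adherens-type junctions beside synapses, had 17.0, 19.4, 23.8, 27.7, 33.1 and 33.5 CPM in MS_EC12 libraries, against 30.2, 34.1, 37.1, 40.1, 41.7 and 41.9 CPM in MS libraries. The only MS library within the MS_EC12 range was replicate 3, which has a positive GC slope. The log2 fold change was -0.54 ± 0.147 (unadjusted p = 0.00113, adjusted p = 0.0768 in edgeR), and in the 17 libraries -0.23 ± 0.0728 (adjusted p = 0.303). Of the other adhesion partners, the presynaptic Nrxn3 had -0.26 ± 0.114 and Nrxn2 0.23 ± 0.0855 on the log2 scale, with adjusted p of 0.129 and 0.0951. Over the 17 libraries these were -0.05 for Nrxn3 and 0.01 for Nrxn2. Nlgn3, which is found at both excitatory and inhibitory synapses, and Lrrtm1 had log2 fold changes of -0.07 ± 0.113 and 0.08 ± 0.0812, and of -0.19 and -0.07 in the 17 libraries.

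**Figure D3:**
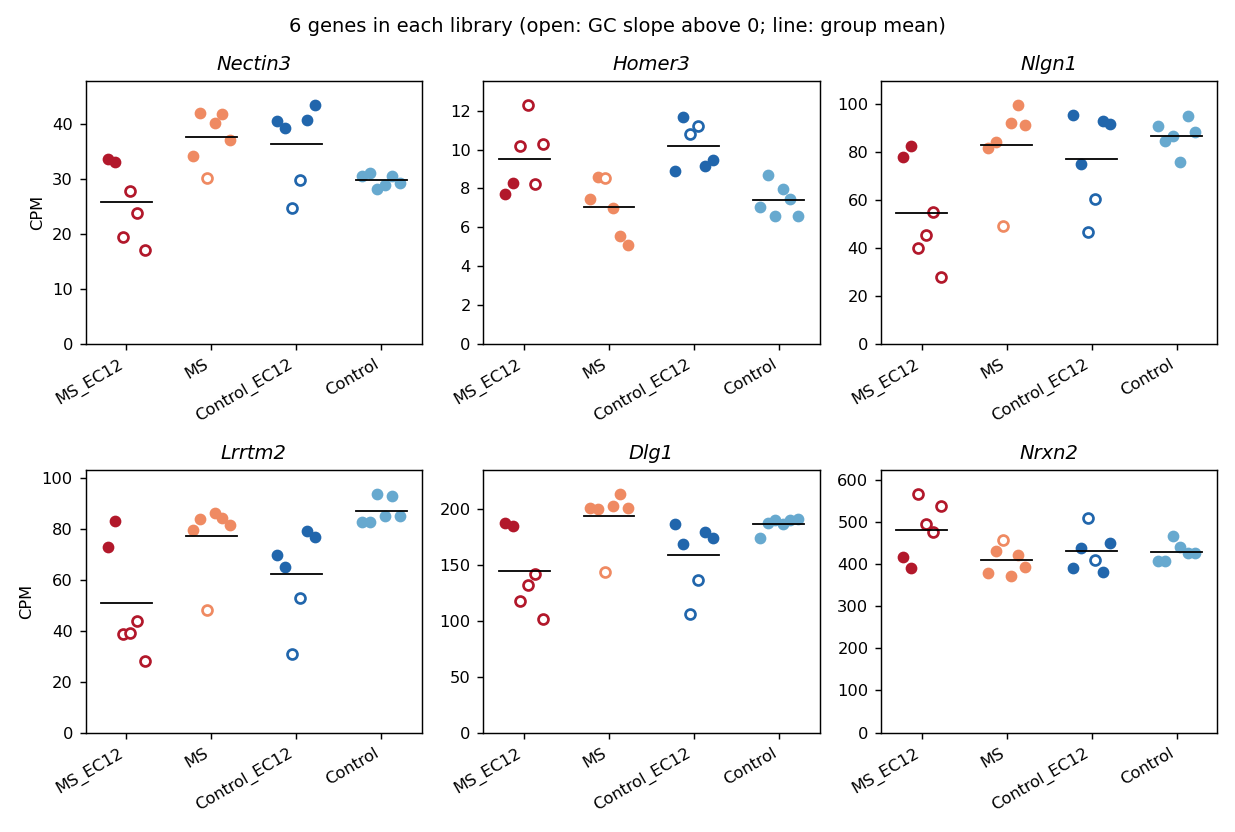
CPM of 6 genes in each library, by group, with a line at the group mean and open circles for libraries of GC slope above 0. The open circles of Nlgn1, Lrrtm2 and Dlg1 lie below all filled ones. The filled circles of Nectin3 lie at 33.1 and 33.5 CPM in MS_EC12, from 34.1 CPM in MS, from 39.2 CPM in Control_EC12 and up to 31.0 CPM in Control.

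Among the excitatory scaffolds, Dlg1, a guanylate kinase scaffold that carries AMPA receptors to the synapse, had 102, 118, 132, 142, 185 and 188 CPM in MS_EC12 libraries, against 144, 200, 201, 201, 203 and 214 CPM in MS libraries. The groups overlapped through MS replicate 3 alone, and both MS_EC12 libraries of negative slope lay below the other MS libraries. Among libraries of negative slope alone, 12.4% of all genes tested had MS_EC12 and MS groups that did not overlap. The log2 fold change of Dlg1 was -0.42 ± 0.138 (adjusted p = 0.0843), and -0.13 ± 0.0513 (adjusted p = 0.448) in the 17 libraries. Its relative Dlg2 had -0.34 ± 0.131 and Dlg3 -0.11 ± 0.0592, whereas Dlg4 had 0.16 ± 0.0929, with adjusted p of 0.102, 0.186 and 0.235. The linkers likewise differed among themselves, with log2 fold changes of -0.21 ± 0.108 for Dlgap1, -0.17 ± 0.0976 for Dlgap2, 0.22 ± 0.126 for Dlgap3 and 0.15 ± 0.0801 for Dlgap4. With the 17 libraries all 4 Dlg genes and all 4 Dlgap genes lay between -0.13 and -0.02.

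Shank1, Shank2 and Shank3, the large proteins at the base of the postsynaptic density, had log2 fold changes of 0.15 ± 0.0935, 0.04 ± 0.104 and 0.22 ± 0.126, and adjusted p of 0.245, 0.822 and 0.221. The CaMKII subunits Camk2a and Camk2b had 0.19 ± 0.0976 and 0.15 ± 0.0748. Of the AMPA receptor auxiliary subunits, Cacng2 and Cacng8 lay at -0.01 and 0.01, with 95% intervals of -0.15 to 0.13 and -0.14 to 0.17, and Cacng3 at 0.15 ± 0.106. Iqsec2, which activates ARF GTPases in the spine, had 0.18 ± 0.102. The highest value of all belonged to Homer3, at 0.43 ± 0.132 (adjusted p = 0.0813), and is taken up with the supplement in control-reared mice. Homer2, its relative, had -0.08 ± 0.153. With the 17 libraries, Shank2, Shank3, Camk2b, Cacng3 and Iqsec2 had negative values in place of positive ones (-0.13, -0.05, -0.03, -0.04 and -0.01). So did Cacng8, at -0.21 (adjusted p = 0.312), and Homer2 had a positive value, 0.12. Shank1 was then at 0.07, Camk2a at 0.03, Cacng2 at -0.03 and Homer3 at 0.24, and none of them passed.

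The inhibitory pair diverged in sign. Gphn, which encodes gephyrin, had 48.4, 51.8, 58.8, 61.0, 73.4 and 74.3 CPM in MS_EC12 libraries, against 60.4, 69.3, 71.7, 73.9, 77.2 and 77.6 CPM in MS libraries. Its log2 fold change was -0.23 ± 0.0997 (unadjusted p = 0.0320, adjusted p = 0.129 in edgeR). Nlgn2, the neuroligin of inhibitory synapses, had 245, 246, 302, 305, 345 and 351 CPM in MS_EC12 libraries, against 245, 252, 262, 266, 278 and 313 CPM in MS libraries, and a log2 fold change of 0.15 ± 0.0920 (adjusted p = 0.247). The groups overlapped for both genes, and the MS_EC12 libraries of positive slope were the low ones for Gphn and the high ones for Nlgn2. Among the 17 libraries the values were -0.01 for Gphn and -0.09 for Nlgn2.

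Set side by side by role, the 19 excitatory scaffold and signalling genes had a median log2 fold change of 0.15 in MS_EC12 against MS, with 12 positive, and the 7 adhesion partners one of -0.26, with 2 positive. The inhibitory pair stood at -0.23 and 0.15. All genes tested had a median of 0.015 and the 28 genes one of 0.03. The roles also differed in base composition, with a median GC content of 55.9% in the excitatory genes and 48.2% in the adhesion partners. In the 17 libraries of slope below 0 the medians were -0.04 in the excitatory genes, -0.09 in the adhesion partners and -0.05 in the inhibitory pair.

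Across the 28 genes, fold change followed GC content. In MS_EC12 against MS, Pearson's r between log2 fold change and GC content was 0.87 and Spearman's rho 0.85, across genes, which are not independent replicates and share the same libraries. Of 15 genes with a GC content of 55% or more, 14 had a positive log2 fold change, and of 13 below 55%, 1 did. Across all 15144 genes tested that have a GC value r was 0.64, and 92.8% of those at 55% or more were positive, against 38.8% of those below. In the 17 libraries r over the 28 genes was 0.22, and over all genes 0.02. The slopes that picked these libraries were computed over the same genes, so r in them is not independent of that choice. For MS_EC12 against Control_EC12 r over the 28 genes was 0.71 with 24 libraries and -0.12 with 17, for Control_EC12 against Control 0.44 and -0.13, and for MS against Control -0.12 and -0.54.

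**Figure D4:**
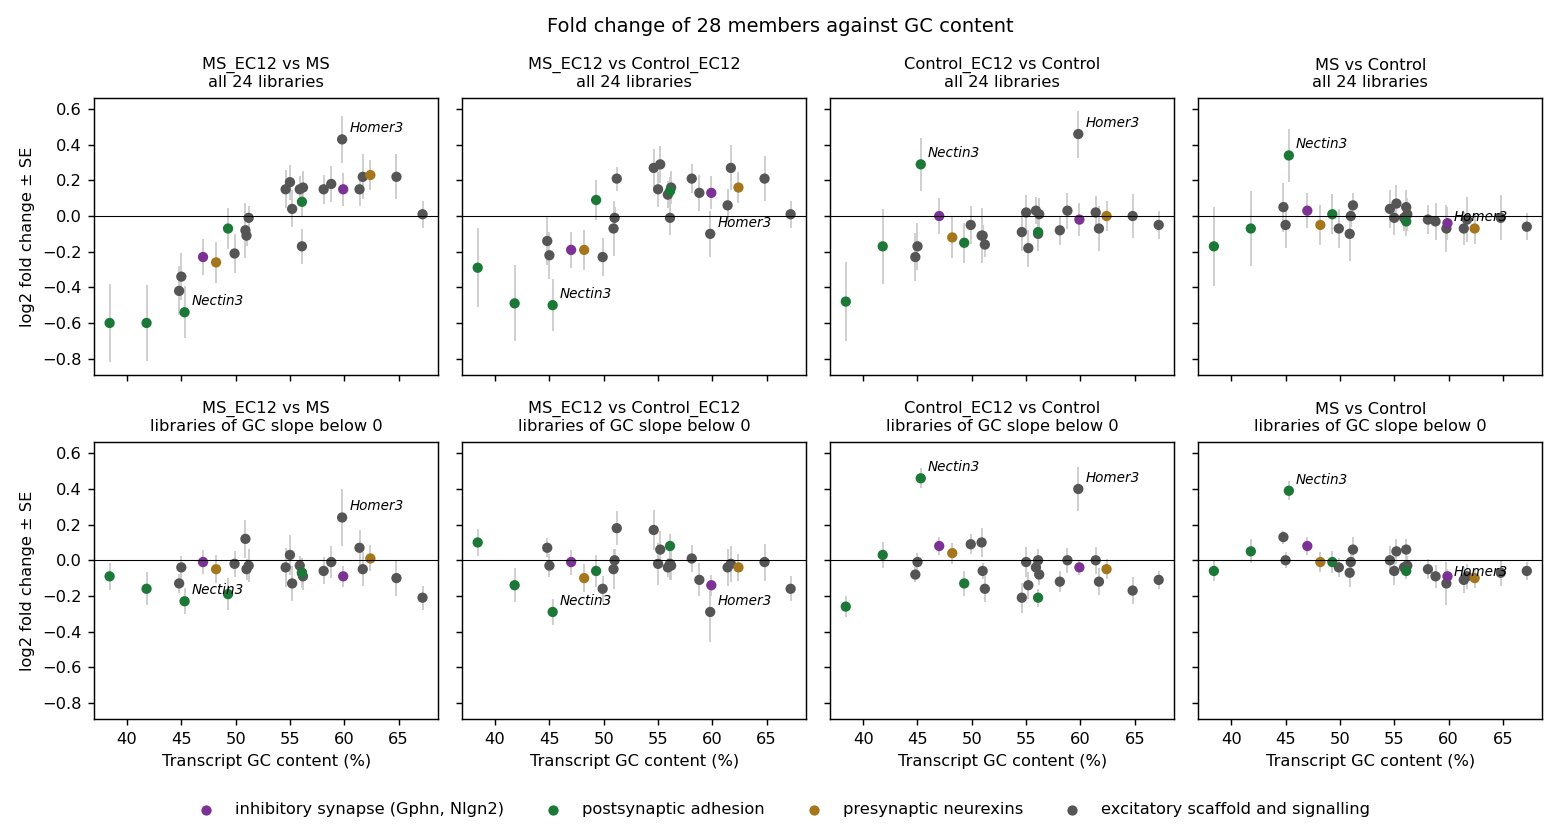
Log2 fold change (with its SE) of the 28 genes against transcript GC content for 4 comparisons, in all 24 libraries (top) and in the 17 of GC slope below 0 (bottom), coloured by role. The slanted band of the MS_EC12 comparisons at the top, with r of 0.87 and 0.71, is flat at the bottom. Nectin3 in MS and in Control_EC12, and Homer3 in Control_EC12, lie above the other genes in the bottom panels.

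MS_EC12 was next set against Control_EC12, which asks what separation did in mice that all had the supplement. None of the 28 genes passed in edgeR or in DESeq2, where 0.261% of all genes passed in edgeR and 0.963% in DESeq2. At an unadjusted p under 0.05 there were 8 of the 28, 5 higher (7.87% of all genes) and 3 lower (8.04% of all genes), against 15.9% in both directions. None had groups that did not overlap, against 0.468% of all genes. In the libraries of negative slope alone 7 did not overlap, against 18.8% of all genes, and 0 passed, against 0.162%. The smallest p was that of Nectin3, with 17.0 to 33.5 CPM (median 25.7) in MS_EC12 against 24.7 to 43.4 CPM (median 39.8) in Control_EC12. Its groups overlapped, and its log2 fold change was -0.50 ± 0.147 (adjusted p = 0.173). Without Control_EC12 replicate 3, a library of positive slope, it passed (log2 fold change -0.59, adjusted p = 0.0395), where 1% of all genes did. In the 17 libraries it was -0.29 and did not pass.

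Cacng2, the founding member of the AMPA receptor auxiliary subunits, had 73.7, 75.8, 84.4, 84.8, 87.8 and 88.3 CPM in MS_EC12 libraries, against 65.3, 70.5, 71.2, 71.7, 73.3 and 74.7 CPM in Control_EC12 libraries. All but the lowest MS_EC12 library lay above every Control_EC12 library. The log2 fold change was 0.21 ± 0.0679 (unadjusted p = 0.0043, adjusted p = 0.211), and 0.18 ± 0.0971 (adjusted p = 0.493) in the 17 libraries. Control_EC12 had the lowest mean of Cacng2, at 71.1 CPM, against 82.5 CPM in MS_EC12, 83.0 CPM in MS and 79.5 CPM in Control. Shank2 had 186 to 267 CPM (median 217) in MS_EC12 against 129 to 212 CPM (median 191) in Control_EC12, and a log2 fold change of 0.29 ± 0.104 (adjusted p = 0.247), which was 0.06 in the 17 libraries. Its mean was likewise lowest in Control_EC12, at 182 CPM, against 223 CPM in MS_EC12, 217 CPM in MS and 207 CPM in Control. The others at an unadjusted p under 0.05 were Cacng3 at 0.27, Shank3 at 0.27, Dlgap4 at 0.21, Dlgap1 at -0.23 and Nlgn1 at -0.49. With the 17 libraries they were 0.17 for Cacng3, -0.02 for Shank3, 0.01 for Dlgap4, -0.16 for Dlgap1 and -0.14 for Nlgn1. In medians, the excitatory genes had 0.12 and the adhesion partners -0.19, and in the 17 libraries -0.02 and -0.06.

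Control_EC12 against Control asks what the supplement did in control-reared mice. None of the 28 genes passed in edgeR or in DESeq2, where 0.0218% of all genes passed in edgeR and 0.403% in DESeq2. Those at an unadjusted p under 0.05 were 3 of the 28, namely Homer3 higher (5.62% of all genes) and Lrrtm2 and Cacng2 lower (3.31% of all genes), against 8.93% in both directions. In 2 genes, Homer3 and Lrrtm2, the groups did not overlap in CPM, which held for 1.33% of all genes tested. The medians were -0.07 in the excitatory genes and -0.12 in the adhesion partners, against 0.01 over all genes tested, and Gphn and Nlgn2 lay at 0.00 and -0.02. In the 17 libraries the role medians were -0.06 and -0.05. Among those libraries 3 genes did not overlap, Homer3 and Nectin3 higher and Lrrtm2 lower, against 4.23% of all genes. Of the 28 only Nectin3, taken up below, passed there, where 0.456% of all genes did.

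Lrrtm2 had 30.9, 52.8, 65.0, 70.0, 77.0 and 79.4 CPM in Control_EC12 libraries, against 82.7, 82.8, 85.1, 85.1, 93.1 and 94.0 CPM in Control libraries. Every Control_EC12 library was lower than every Control library, including those of negative slope. Its log2 fold change was -0.48 ± 0.221 (unadjusted p = 0.0397, adjusted p = 0.533). With the GC slope as a covariate it was -0.32 ± 0.0645 and passed (adjusted p = 0.0151), as it did with a GC offset (-0.35 ± 0.0708, adjusted p = 0.0330). In the 17 libraries it was -0.26 ± 0.0585 and did not pass (adjusted p = 0.0548). Ctnna1, the gene around it, had -0.09 ± 0.0824.

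Homer3 binds metabotropic glutamate receptors and Shank proteins and was the least abundant of the 28 genes. It is encoded on chromosome 8 from 70282880 to 70294361 (GRCm38), and its span overlaps that of Ddx49. It had 8.91, 9.16, 9.44, 10.8, 11.2 and 11.7 CPM in Control_EC12 libraries, against 6.57, 6.58, 7.05, 7.45, 7.99 and 8.68 CPM in Control libraries. Every Control_EC12 library was higher than every Control library. The log2 fold change was 0.46 ± 0.132 (unadjusted p = 0.00181, adjusted p = 0.244), and 0.40 ± 0.124 in the 17 libraries (adjusted p = 0.166).

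In separated mice, Homer3 had 7.72, 8.21, 8.26, 10.2, 10.3 and 12.3 CPM in MS_EC12 libraries, against 5.10, 5.57, 7.02, 7.45, 8.52 and 8.57 CPM in MS libraries. The 3 highest libraries were MS_EC12 ones and the groups overlapped below them. The interaction, which is the difference between the supplement's effect in separated and in control-reared mice, was -0.03 ± 0.187 on the log2 scale, with a 95% interval of -0.41 to 0.36. The mean of both supplement effects was therefore computed as well, a comparison added after these values had been seen. It was 0.45 ± 0.0933 (adjusted p = 0.0177 in edgeR), where 7.88% of all genes passed. Homer3 passed in all 24 fits that left out 1 library (0.40 to 0.48). It did not pass with the GC slope as a covariate (0.33 ± 0.0914, adjusted p = 0.0911) nor in the 17 libraries (0.32 ± 0.102, adjusted p = 0.141). With a GC offset, 5 of the genes described here passed in the averaged comparison, 1 higher and 4 lower. The higher one was Homer3, at 0.3, where 7.42% of all genes passed.

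Other measures are set beside Homer3 here. Ddx49, the helicase gene that overlaps it, had a log2 fold change of 0.25 ± 0.0753 in the averaged comparison (adjusted p = 0.0441). The summed level of 5 olfactory bulb markers, none of them at 0, was 41.8 to 291 TPM (median 123) in MS_EC12, 17.8 to 146 TPM (median 86.5) in MS, 106 to 350 TPM (median 164) in Control_EC12 and 24.4 to 173 TPM (median 95.1) in Control. The highest Homer3 library of MS_EC12, at 12.3 CPM, had the highest sum in its group, 291 TPM, and the highest of Control_EC12, at 11.7 CPM, had 350 TPM. Other libraries departed from this order. The MS_EC12 library with the second-highest sum, 245 TPM, had the lowest Homer3 value of its group, 7.72 CPM, and the Control_EC12 library with the lowest sum, 106 TPM, had 10.8 CPM. The part of either in the result was not tested.

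Lrrtm2 and Dlg1 also passed in the averaged comparison, with log2 fold changes of -0.54 ± 0.156 (adjusted p = 0.0411) and -0.33 ± 0.0973 (adjusted p = 0.0439). Each of these calls was kept in 7 of 24 fits that left out 1 library. With the GC slope as a covariate they were -0.19 (adjusted p = 0.0808) and -0.10 (adjusted p = 0.141). In the 17 libraries, where 0.518% of all genes passed, they were -0.18 (adjusted p = 0.0886) and -0.10 (adjusted p = 0.141). With a GC offset, 4 of the genes described here passed as lower in the averaged comparison. The lowest log2 fold change there was -0.25 in the adhesion partners and -0.24 in the excitatory genes.

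MS against Control asks what separation did without the supplement. None of the 28 genes passed in edgeR or in DESeq2, where 0.0326% of all genes passed in edgeR and 0.12% in DESeq2. None had groups that did not overlap, against 0.718% of all genes. At an unadjusted p under 0.05 there was 1, Nectin3, against 3.6% of all genes, 1.49% being higher. The log2 fold changes ran from -0.17 for Lrrtm2 to 0.34 for Nectin3, and the other 26 lay between -0.10 and 0.07. For the excitatory scaffolds Dlg3 and Dlg4 the 95% intervals were -0.12 to 0.12 and -0.18 to 0.21, and for Camk2b -0.16 to 0.15, so larger differences in these genes lie outside the intervals. The intervals of Nlgn1 (-0.50 to 0.37) and Lrrtm2 (-0.62 to 0.28) leave room for differences of that size. Gphn had 0.03 ± 0.0997 and Nlgn2 -0.04 ± 0.0920, and the role medians were -0.01 in the excitatory genes and -0.05 in the adhesion partners. In the 17 libraries these medians were -0.04 and -0.01. Among those libraries 2 genes, Dlg1 and Nectin3, did not overlap and were higher in MS, against 1.81% of all genes in either direction. Dlg1 had 200 to 214 CPM in MS (n = 5) and 174 to 191 CPM in Control (n = 6). Of the 28 only Nectin3, taken up below, passed there, where 0.435% of all genes did.

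**Figure D5:**
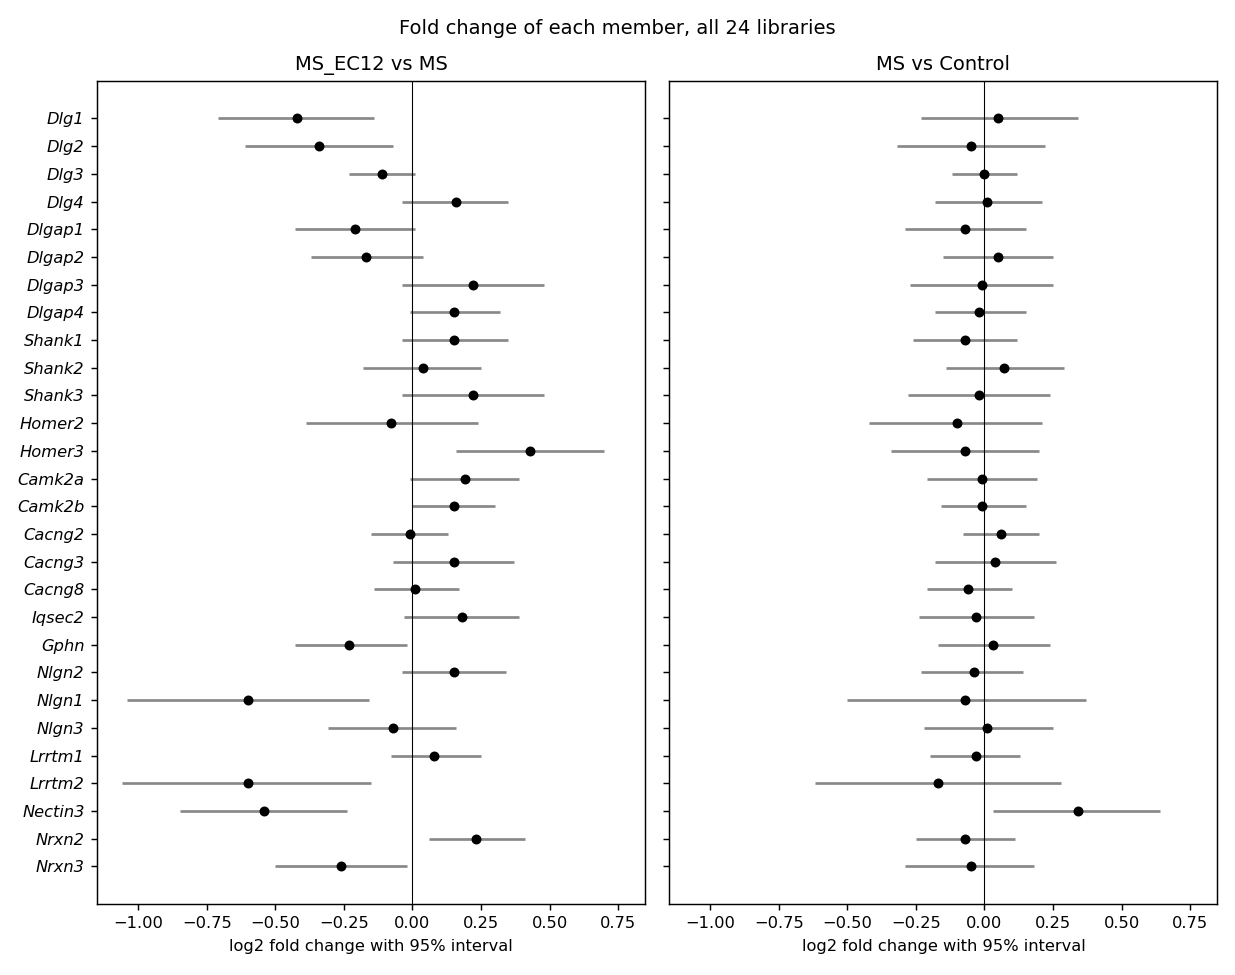
Log2 fold change of each gene with its 95% interval in MS_EC12 against MS (left) and in MS against Control (right), from all 24 libraries. On the left Nlgn1 and Lrrtm2 lie lowest at -0.60 and Homer3 highest at 0.43. On the right only the interval of Nectin3, 0.03 to 0.64, lies wholly on one side of 0.

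Nectin3 stood apart in how the groups were ordered. It lies on chromosome 16 from 46387665 to 46498535 (GRCm38), has a transcript GC content of 45.3% and overlaps no other protein-coding gene. Beside the MS_EC12 and MS values above, it had 24.7, 29.7, 39.2, 40.4, 40.6 and 43.4 CPM in Control_EC12 libraries, against 28.2, 28.8, 29.3, 30.5, 30.5 and 31.0 CPM in Control libraries. The 4 Control_EC12 libraries above the Control range were those of negative slope, and in MS 5 of 6 libraries lay above it. The log2 fold change was 0.34 ± 0.147 in MS against Control (unadjusted p = 0.0313, adjusted p = 1) and 0.29 ± 0.147 in Control_EC12 against Control (adjusted p = 0.572).

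The interaction of Nectin3 was -0.83 ± 0.208 on the log2 scale (95% interval -1.26 to -0.40). Its unadjusted p of 0.000508 ranked 26 among 18380 genes and its adjusted p was 0.359, so it did not pass. No other gene of the 28 had an unadjusted p under 0.05 in the interaction, against 4.8% of all genes (2.02% lower), and 0.0109% of all genes passed with adjustment. DESeq2 called none of the 28 and 0.103% of all genes. Leaving out 1 library at a time gave -0.92 to -0.73, with adjusted p of 0.139 to 0.709.

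The Nectin3 interaction passed in each of 3 fits that took account of GC content. It was -0.60 ± 0.0923 with the GC slope as a covariate (adjusted p = 0.00572), -0.69 ± 0.111 with a GC offset (adjusted p = 0.0241) and -0.69 ± 0.0921 in the 17 libraries (adjusted p = 0.0082, where 0.0105% of all genes passed). In those 17 libraries it had 33.1 and 33.5 CPM in MS_EC12, 34.1 to 41.9 CPM in MS (n = 5), 39.2 to 43.4 CPM in Control_EC12 (n = 4) and 28.2 to 31.0 CPM in Control (n = 6). MS and Control_EC12 each lay wholly above Control. Genes whose groups did not overlap, in either direction, were 1.81% and 4.23% of all genes tested. The log2 fold change of MS against Control was 0.39 ± 0.0522 (adjusted p = 0.00119) and that of Control_EC12 against Control 0.46 ± 0.0554 (adjusted p = 0.000856), where 0.435% and 0.456% of all genes passed. With the covariate they were 0.35 (adjusted p = 0.00912) and 0.40 (adjusted p = 0.00245). With the offset they were 0.36 in both, of which that of Control_EC12 passed (adjusted p = 0.0450) and that of MS did not (adjusted p = 0.0728). MS_EC12 against MS was -0.23 ± 0.0728 in the 17 libraries and did not pass (adjusted p = 0.303). The MS_EC12 value there rests on 2 libraries. The slope also differed between groups within the 17, at -0.178 to -0.171 in MS_EC12, -0.212 to -0.165 in MS, -0.174 to -0.0986 in Control_EC12 and -0.156 to -0.0934 in Control, and its part in these values was not tested further.

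Other genes of the same structures were read from 3 lists. In the 4 group comparisons and the interaction, edgeR called 0 of 20 other excitatory scaffold genes, 0 of 15 other inhibitory scaffold genes and 0 of 34 other adhesion genes. In MS_EC12 against MS, 6 of 20, 6 of 15 and 20 of 34 had an unadjusted p under 0.05, 2, 2 and 3 of them higher, against 31.8% of all genes (15.5% higher and 16.3% lower). Their median log2 fold changes were 0.03, -0.05 and -0.21. With the GC slope as a covariate the medians were -0.06, -0.01 and -0.085. The smallest p of these genes in Control_EC12 against Control belonged to Homer1, the relative of Homer2 and Homer3 whose short form is induced by activity, with a log2 fold change of -0.60 ± 0.124 (adjusted p = 0.0669). Homer1 passed there with the GC slope as a covariate (-0.53 ± 0.0940, adjusted p = 0.00584) and in the 17 libraries (-0.44 ± 0.0866, adjusted p = 0.0260). Baiap2 passed in both settings too (-0.28 ± 0.0480 and -0.29 ± 0.0453, adjusted p = 0.00503 and 0.00579). So did Flrt3 (-0.33 ± 0.0726 and -0.38 ± 0.0719, adjusted p = 0.0313 and 0.0225). The shares of all genes that passed were 0.724% and 0.456%. In MS against Control, 1 gene of these lists, Flrt2, passed as higher in the 17 libraries, where 0.435% of all genes passed. In the averaged comparison added later, Homer1 had -0.53 ± 0.0878 (adjusted p = 0.00989), opposite in sign to Homer3.

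In that averaged comparison 3 of 20 other excitatory scaffold genes passed (Homer1 and Camk2d lower, Cacng7 higher), 0 of 15 inhibitory scaffold genes and 10 of 34 adhesion genes (Cbln1 higher and 9 lower), where 7.88% of all genes passed. Among the adhesion genes, Flrt3, a leucine-rich repeat protein that binds latrophilins, had a log2 fold change of -0.47 ± 0.0990 (adjusted p = 0.0179). With the covariate, where 0.435% of all genes passed in the averaged comparison, 2 of the excitatory scaffold genes passed (Homer1 and Baiap2) and 1 of the adhesion genes (Flrt3, -0.26 ± 0.0571, adjusted p = 0.0351). In the 17 libraries, where 0.518% of all genes passed, Homer1 and Baiap2 did and no adhesion gene.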

How the data were processed

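RNA-seq was made from prefrontal cortex with ISOGEN II extraction and a TruSeq stranded mRNA kit, per the labels' protocols. The submitters' processing notes list HISAT2 2.1.0, StringTie 2.1.3b, Trimmomatic 0.38, FastQC 0.11.7, DESeq2 and the mm10 build. What each did, and how strand was treated in counting, is not stated in them. The authors deposited unnormalized read counts per gene, which are whole numbers, and TPM and FPKM values that the authors computed, per the file headers. The counts were tested, TPM served for levels and an alternative, and FPKM was not used.

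Genes were filtered with filterByExpr (minimum count 10, minimum total 15), scaled with TMM and tested in edgeR 4.0.16 (R 4.3.3; glmQLFit and glmQLFTest, 2-sided) with all 24 libraries in the same fit and Benjamini-Hochberg adjustment over 18380 genes. An adjusted p under 0.05 counted as a call. The fit was tested on counts simulated without a dependence on GC content, so that test does not bear on the GC slopes. Errors are SE for log2 fold changes and SD for levels. The GC slope is the slope of log2 CPM (prior count 2), centred over libraries, on transcript GC, which 82.4% of the genes tested had. Depth was 26250197 counts or more per library, and the lowest count of any of the 28 genes was 149, for Homer3. No pair of libraries held the same counts within sampling noise, since chi-square per gene was at least 5.13.

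Alternatives were RLE size factors, DESeq2 1.42.0, no filter, a replicate block, the 2 groups alone, a GC slope covariate, a GC offset (lowess span 0.3), the 17 libraries of GC slope below 0, limma 3.58.1 on log2(TPM + 1) and leaving out each library. All 28 genes were eligible to be named, with the members of 3 further lists. The members and the lists were chosen with earlier results of these data known. Gene positions came from RefSeq on GRCm38.p6, and 4 genes overlap another protein-coding gene (Homer3, Lrrtm1, Lrrtm2 and Shank1), so their counts are less certain.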

Additional observations from a re-analysis of the deposited data

Results flagged for a closer look

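Of 112 groups checked (28 genes in 4 groups of 6 libraries), 8 had a library farther from the others than Dixon's critical value for 6 libraries allows. Chance alone flags about 1 in 20 groups. In MS, replicate 3, whose GC slope was 0.283, accounted for 4 of the 8. It had 144 CPM of Dlg1 where the other MS libraries had 200 to 214, 49.3 CPM of Nlgn1 where they had 81.7 to 99.7, and 48.1 CPM of Lrrtm2 where they had 79.6 to 86.5. It also had 1080 CPM of Camk2b where they had 922 to 945. In Control_EC12, replicate 3 (GC slope 0.459) had 1160 CPM of Camk2b where the others had 886 to 989, and replicate 4 (GC slope 0.108) had 152 CPM of Dlg3 where the others had 183 to 194. In Control, replicate 1 had 174 CPM of Dlg1 where the others had 187 to 191, and replicate 6 had 180 CPM of Dlg3 where the others had 195 to 203. Without MS replicate 3, 7 of the 28 genes passed in MS_EC12 against MS, where 21.3% of all genes did.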

How the results depend on the processing

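In the 4 group comparisons and the interaction the number of the 28 genes called was 0. The share of all genes called is given in brackets. In MS_EC12 against MS it became 5 with DESeq2 (10.3%), 7 with the replicate block (20.7%) and 1 with limma on TPM (0.876%). In Control_EC12 against Control it became 2 with the GC slope covariate (0.724%), 2 with the GC offset (0.354%) and 1 with GC slope below 0 (0.456%). In MS against Control it became 1 with the covariate (0.337%) and 1 with slope below 0 (0.435%), and in the interaction 1 with each of these (0.0381% and 0.0105%) and with the offset (0.0163%). In the averaged supplement comparison, added after values were seen, 3 (7.88%) became 6 with DESeq2 (16.3%), 1 with no filter (1.06%), 7 with the block (24.8%), 0 with the covariate (0.435%), 5 with the offset (7.42%), 0 with slope below 0 (0.518%) and 7 with TPM (12.9%). Leaving out 1 library gave 0 to 10 in MS_EC12 against MS (0% to 27.2%) and 0 to 1 in MS_EC12 against Control_EC12 (0.0755% to 1%). In the averaged comparison it gave 1 to 7 (1.15% to 24.9%). All other settings left the counts as they were, and no called gene reversed its sign. The cause of these moves was not tested. The setting with slope below 0 also has fewer libraries (2 in MS_EC12) and tests 19098 genes. Deviations from the group means had a mean r of 0.153 between libraries of the same number (-0.454 to 0.791 over 36 pairs) and -0.0321 between others. The labels give no shared source, so the numbers were not taken to pair the libraries. Whether libraries of the same number share a source was not tested. Of 12 libraries, 2, 3, 7 and 3 correlated best with their own number in MS_EC12 against MS, MS_EC12 against Control_EC12, Control_EC12 against Control and MS against Control. The fit of 2 groups alone does not apply to the interaction or the averaged comparison. The Poisson error of the lowest count was 8.19% for Homer3, beside a spread within groups of 11.3% to 20.7% (coefficient of variation).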
